A study of Daphnia magna with 230 samples.

Results

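Dapma7bEVm005257t1 is the transcript of Daphnia magna whose name in the study's tables places it among the doublesex- and mab-3-related factors (factor 3/sw). It was chosen by its identifier and its name, and it is 1 of 29127 transcripts in the deposited table. The name comes from tables of transcripts that the study selected on these same libraries. The study reported it as changed with pyriproxyfen in laboratory water and in unspiked wetland against laboratory water. The tests of Lab Water-119 against Lab Water-0 and of unspiked wetland against laboratory water are therefore not independent of that choice. Nor is the interaction of water and pyriproxyfen, which uses the same libraries. No other named transcript of those tables carries a doublesex name. It passed the filter on transcripts without variance, which kept 26256. No gene symbol, position or sequence for it was found in the reference table used here, in which 0 of the table's identifiers occur. The level is given in CPM, the estimated count of the transcript in a library scaled by that library's total, so that libraries of different depth can be compared.

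Doublesex belongs to the DM-domain (DMRT) family of transcription factors, which share a zinc-binding DNA-binding domain and act in sexual differentiation across animals. In daphnids sex is set by the environment rather than by sex chromosomes, and Doublesex1 is the factor known to drive male traits. Its expression follows methyl farnesoate, the juvenile hormone of crustaceans, which is sensed by a receptor complex that includes Methoprene-tolerant. Pyriproxyfen is a juvenile hormone analog, used against insect larvae, that induces male offspring when female daphnids are exposed. Whether Dapma7bEVm005257t1 is Doublesex1 itself or another member of the family was not tested here.

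Each library came from a pool of 5 whole neonates of laboratory-reared D. magna after 96 h in a test water, so the level is that of the whole animal. The wetland experiment held 69 libraries in 15 groups. Of these, 3 groups were in laboratory water and are named Lab Water-0, Lab Water-119 and Lab Water-239, and 12 were in water of the Breen, Douglas, Kandiyohi, Kerk, LeSouer or Woodland wetland, unspiked (Wetland-0) or spiked (Wetland-119). The number in each name is the nominal pyriproxyfen concentration in ng/L. In its laboratory concentration series the study found that nominal values appeared to be higher than measured ones. The stormwater libraries came from 9 sampling points in spring, early summer and late summer, namely the inflow and the outfall of sand filters at the 37ST, TBNS1 and TBNS2 sites and the Cedar Lake, Crystal Lake and SAP pipes, beside 21 libraries of SCSU laboratory controls with the same season labels. No stormwater was spiked. The study's methods say that unspiked wetland water carried the ethanol vehicle and that the unspiked laboratory control was water only. In laboratory water pyriproxyfen and its vehicle therefore cannot be told apart, and neither can the vehicle and the wetland water in the unspiked comparison.

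The libraries of one group shared one water sample and one exposure, so the tests measure the spread between pools of neonates and not between independent waters or collections. Late summer libraries of the SAP pipe and of the control carry a second code letter each, and these second sets are named K and L. Library totals ran from 6693411 to 15036928 counts in the wetland experiment and from 5040635 to 14182171 in the stormwater experiment. The transcript had between 62 and 3838 counts in every assigned library, far over the floor of 3 counts, which was at most 0.595 CPM. Spearman's rho of the level with the library total was -0.28 over the 69 wetland-experiment libraries and -0.14 over the 160 stormwater-experiment libraries, given as a description.

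The first question was whether pyriproxyfen changed the transcript in laboratory water. The 5 Lab Water-0 libraries were at 13.3, 13.8, 14.7, 16.4 and 18.9 CPM, the narrowest range of a laboratory group. Those of Lab Water-119 were at 40.9, 50.8, 85.2, 136.8 and 162.5 CPM, and every one of them was above every unspiked library. Those of Lab Water-239 were at 16.8, 18.5, 18.6, 20.2 and 43.8 CPM, so that 4 of the 5 lay below all Lab Water-119 libraries and 1 lay inside their range. The medians were 14.7, 85.2 and 18.6 CPM in order of concentration, high at the middle concentration only.

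From Lab Water-0 to Lab Water-119 the transcript rose by 2.56 ± 0.38 on the log2 scale (log2 fold change ± SE, n = 5 and 5, adjusted p = 0.0015, edgeR quasi-likelihood test with Benjamini-Hochberg adjustment). In this comparison edgeR called 10.1% of all transcripts tested. An exact 2-sided permutation test of the mean log2(CPM + 1) gave p = 0.0079, the smallest that 5 against 5 libraries allow. For Lab Water-239 against Lab Water-0 the log2 fold change was 0.52 ± 0.24 (n = 5 and 5, edgeR adjusted p = 0.42), where edgeR called 0.94% of transcripts. Without replicate 5 of Lab Water-239, the library at 43.8 CPM, that difference was 0.25. For Lab Water-239 against Lab Water-119 it was -2.04 ± 0.42 (n = 5 and 5, edgeR adjusted p = 0.59). In that last comparison edgeR called 0 of 24807 transcripts, with 1725 at an unadjusted p under 0.05, and DESeq2 called 0.695% of the 19866 transcripts it gave an adjusted p, this transcript among them (DESeq2 log2 fold change -2.02, adjusted p = 0.0044). The exact permutation test gave p = 0.016 for the same difference. The fall from Lab Water-119 to Lab Water-239 therefore depends on the test, and it did not pass the edgeR adjustment over all transcripts. In a pool of whole animals, more RNA per cell and more cells that express a transcript cannot be told apart.

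**Figure D1:**
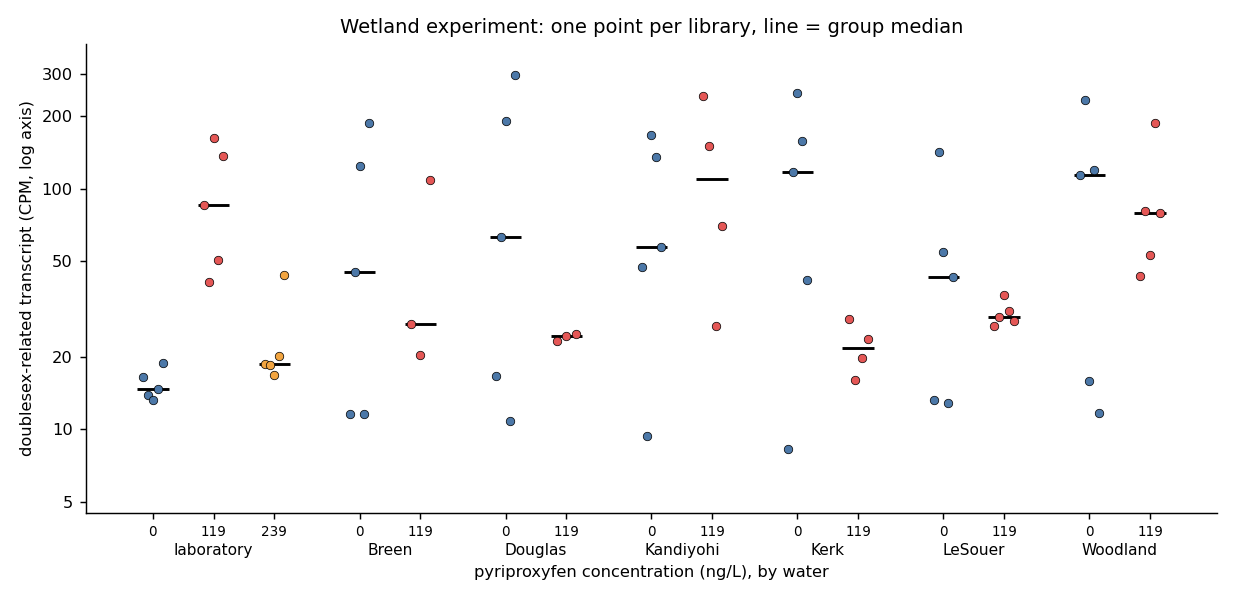
Level of Dapma7bEVm005257t1 (CPM, log axis) in each of the 69 libraries of the wetland experiment, by water and pyriproxyfen concentration, with a line at each group's median. The 5 Lab Water-119 libraries lie above the 5 of Lab Water-0, and the unspiked wetland libraries fall on both sides of an empty stretch between 20 and 40 CPM.

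Wetland water without pyriproxyfen gave a level that differed widely between pools of one and the same water. Breen libraries were at 11.6, 11.6, 45.2, 123.9 and 187.00 CPM. Those of Douglas were at 10.8, 16.7, 62.99, 191.7 and 296.8 CPM. In Kandiyohi water they were at 9.40, 47.4, 57.4, 135.3 and 167.2 CPM. In each of these waters pools ran from below the lowest laboratory control to far above the highest. Kerk libraries ran 8.28, 41.7, 117.6, 157.6 and 250.7 CPM. LeSouer libraries stood at 12.9, 13.3, 42.96, 54.5 and 141.8 CPM. Woodland libraries stood at 11.7, 15.8, 113.6, 119.3 and 233.1 CPM. All 6 waters held both low and high pools, and their group means on the log2(CPM + 1) scale spanned only 0.95, from LeSouer to Kerk.

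Across the 30 unspiked wetland libraries, 10 were under 20 CPM, 0 were between 20 and 40 CPM and 20 were at 40 CPM or more. The highest of the low libraries was at 16.7 CPM and the lowest of the high ones at 41.7 CPM. These bounds were chosen after the values were seen, and the gap was not tested. Of the 30, 20 were above all 5 laboratory controls and 7 were below all of them. Both low and high pools occurred in all 6 wetlands, 1 or 2 low pools to 3 or 4 high ones.

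The wetlands did not pass the test for a difference among themselves without pyriproxyfen (edgeR quasi-likelihood F test over 6 groups and 30 libraries, adjusted p = 0.94), where 3.78% of transcripts did. Against the unspiked laboratory control the pooled wetland waters differed by 2.42 ± 0.81 on the log2 scale (n = 30 and 5), which missed the threshold (edgeR adjusted p = 0.13) where 1.4% of all transcripts passed it. DESeq2 called the same difference (2.43, adjusted p = 0.0068), as did counts summed per wetland water (2.39, edgeR adjusted p = 0.00057), and the exact permutation test gave 1.72 with p = 0.026. The summed fit set 6 wetland sums against 5 laboratory libraries left unsummed. Its laboratory arm therefore still held pools of the same water, not independent waters. The call of a higher level in wetland water thus changes with the method. Water by water, all 6 wetlands had a positive mean difference, from 1.18 in LeSouer to 2.13 in Kerk on the log2(CPM + 1) scale. The exact permutation p lay between 0.048 and 0.17 (n = 5 and 5 each), and none of the 6 passed after adjustment, the smallest adjusted p being 0.14, while the edgeR fit of all groups called 1 of the 6. In all 6 pairs the libraries overlapped.

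In spiked wetland water, Wetland-119, most pools took values in between. The 3 Breen libraries were at 20.4, 27.5 and 108.9 CPM. The 3 Douglas libraries were at 23.3, 24.4 and 24.97 CPM. In Kandiyohi water 4 libraries were at 26.9, 69.8, 150.6 and 242.2 CPM. The Douglas pools were nearly alike, while those of Kandiyohi spread widely and included the highest spiked pool of any wetland. In Kerk water 4 libraries were at 16.1, 19.9, 23.7 and 28.7 CPM. The 5 LeSouer libraries were at 26.8, 28.3, 29.3, 31.1 and 36.2 CPM. The 5 Woodland libraries were at 43.5, 52.9, 79.3, 81.2 and 187.7 CPM. Kerk had the highest median of the unspiked groups, 117.6 CPM, and the lowest of the spiked wetland groups, 21.8 CPM. Of the 24 spiked libraries 2 were under 20 CPM, 13 were between 20 and 40 CPM and 9 were at 40 CPM or more, and the SD on the log2(CPM + 1) scale was 1.08 against 1.66 without pyriproxyfen. That difference in spread was not tested.

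Pyriproxyfen in wetland water gave a log2 fold change of -0.68 ± 0.37 (n = 24 and 30, edgeR adjusted p = 0.22), in a comparison where edgeR called 15.4% of all transcripts. The edgeR fit of all 69 libraries gave -0.96 with an adjusted p of 0.034. That fit had a mean for each group and averaged the wetlands with equal weights. This call too changes with the fit, in which both the samples and the model differed. Within single wetlands the difference of means, Wetland-119 against Wetland-0, was positive in 2 waters, Kandiyohi and Woodland, and negative in 4. It ran from -1.66 in Kerk to 0.66 in Kandiyohi on the log2(CPM + 1) scale, and 0 of 6 passed the exact permutation test, where the unadjusted p lay between 0.13 and 0.91 with 3 to 5 libraries a group. The edgeR fit called 0 of the 6 as well. Spiked wetland and spiked laboratory water differed by -0.77 ± 0.50 on the log2 scale (n = 24 and 5, edgeR adjusted p = 0.43), and 15 of the 24 wetland libraries lay below all 5 laboratory libraries. In that comparison 8.37% of transcripts passed.

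The change from unspiked to spiked libraries differed between the waters. The change with pyriproxyfen in wetland water minus that in laboratory water was -3.22 ± 0.93 on the log2 scale (edgeR interaction term over 64 libraries, adjusted p = 0.019), and edgeR called 8.55% of transcripts. This call held with DESeq2, with all 69 libraries in one fit, and when each laboratory library was left out in turn, between -3.46 and -2.95. It also held with counts summed per wetland group, where the laboratory libraries, pools of the same water, were left unsummed. The term uses the same libraries as the comparisons within each water and is not independent of them. Unspiked wetland water carried the ethanol vehicle and the unspiked laboratory control did not, so water and vehicle cannot be told apart in this term.

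The spiked wetlands did not pass the F test among themselves by edgeR (6 groups, 24 libraries, adjusted p = 0.14, 0.183% of transcripts called), although the likelihood ratio test of DESeq2 called them (adjusted p = 0.001). Their group means spanned 2.03 on the log2(CPM + 1) scale, from Kerk to Kandiyohi. Ordered by median, the 15 groups ran from Kerk without pyriproxyfen at 117.6 CPM to unspiked laboratory water at 14.7 CPM. In all 14 pairs of neighbours in that order the libraries overlapped. Groups explained 29.8% of the variance of log2(CPM + 1) over the 69 libraries, near the median of 32.8% over transcripts with at least 5 CPM. The SD within groups was 1.31, larger than that of 88.3% of those 12557 transcripts.

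In stormwater the question was how the level differed between seasons, sampling points, filter sides and controls. Over all points the spring libraries ran from 5.49 to 315.8 CPM with a median of 86.6 CPM (n = 45). Early summer libraries ran from 6.20 to 120.6 CPM with a median of 11.3 CPM (n = 44), and late summer libraries from 8.11 to 143.5 CPM with a median of 18.2 CPM (n = 50). The highest season had the widest spread, with SDs of 1.54, 0.72 and 0.95 on the log2(CPM + 1) scale in season order.

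The 37ST inflow libraries of spring were at 9.16, 90.1, 96.4, 201.9 and 213.9 CPM. Its early summer libraries were at 11.2, 11.9, 12.1 and 20.2 CPM, and those of late summer at 9.22, 12.05, 12.4, 13.1 and 14.3 CPM. One spring pool was as low as the summer pools, and the other 4 were above all of them. At the 37ST outfall spring libraries were at 37.5, 40.4, 45.9, 80.00 and 112.1 CPM. Early summer gave 9.99, 10.4, 13.01, 21.5 and 49.2 CPM there, and late summer gave 9.19, 12.98, 16.1, 18.2 and 19.3 CPM. All spring pools of the outfall were above all of its late summer pools, which was 1 of the 6 season pairs that passed the test within a point.

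TBNS1 inflow pools of spring were at 5.49, 51.1, 72.9, 88.2 and 121.2 CPM. In early summer they were at 7.18, 7.66, 8.26, 8.82 and 9.96 CPM, and in late summer at 17.5, 20.5, 27.4, 31.97 and 82.9 CPM. The lowest value of the whole series, 5.49 CPM, was a spring pool of this point. TBNS1 outfall pools of spring were at 39.01, 48.1, 53.8, 91.5 and 245.97 CPM. In early summer they were at 6.36, 6.56, 6.76, 8.16 and 9.90 CPM, the lowest group of all by median, and in late summer at 26.9, 42.6, 43.1, 60.1 and 143.5 CPM. Both TBNS1 points were lower in early summer than in late summer with no overlap, and the outfall was also lower than in spring with no overlap.

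For TBNS2 inflow the spring pools were at 8.86, 29.4, 130.6, 193.00 and 200.9 CPM. The early summer pools were at 12.1, 12.1, 13.4, 13.5 and 17.6 CPM, and the late summer pools at 15.4, 19.5, 21.7, 22.8 and 136.7 CPM. One late summer pool was in the upper part of the spring range, and the other 4 were at 22.8 CPM or less. For TBNS2 outfall the spring pools were at 7.01, 11.4, 20.97, 50.9 and 86.6 CPM. Its early summer pools were at 9.5, 9.65, 9.89, 12.8 and 22.8 CPM, and its late summer pools at 16.8, 18.5, 18.6, 48.7 and 51.3 CPM. This was the point with the lowest spring median, 20.97 CPM, and its seasons overlapped throughout.

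Cedar Lake pipe libraries were at 8.56, 77.97, 104.8, 149.7 and 315.8 CPM in spring. They were at 6.20, 8.17, 8.49, 8.67 and 11.3 CPM in early summer and at 9.54, 10.4, 14.2, 14.2 and 16.9 CPM in late summer. The highest value of the series, 315.8 CPM, stood in the same spring group as a pool at 8.56 CPM. Crystal Lake pipe libraries were at 16.9, 59.1, 110.1, 220.5 and 228.9 CPM in spring. They were at 8.21, 10.2, 11.8, 17.1 and 120.6 CPM in early summer and at 11.4, 11.6, 13.9, 14.2 and 18.3 CPM in late summer. A single early summer pool of Crystal Lake stood at 120.6 CPM, while the other 4 were at 17.1 CPM or less. SAP pipe libraries were at 33.3, 122.8, 236.8, 268.6 and 289.8 CPM in spring, the highest median of any group at 236.8 CPM. They were at 12.03, 15.2, 15.4, 15.5 and 16.6 CPM in early summer. In late summer set I was at 8.11, 9.64, 23.8, 24.2 and 28.1 CPM and set K at 10.1, 13.4, 23.2, 30.3 and 80.3 CPM. All spring pools of the SAP pipe lay above its early summer pools and above those of late summer set I.

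**Figure D2:**
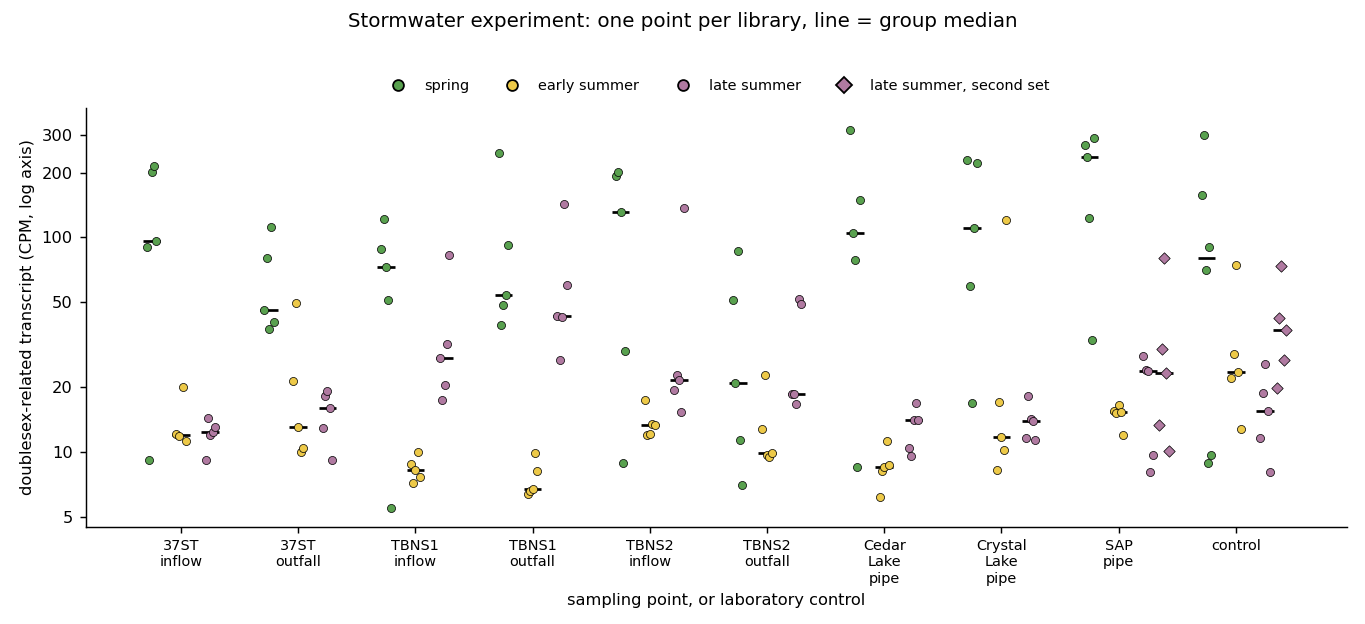
Level of Dapma7bEVm005257t1 (CPM, log axis) in each of the 160 assigned libraries of the stormwater experiment, by sampling point and season, with the laboratory controls at the right, diamonds for the second late summer sets and a line at each group's median. Spring medians lie between 20.97 and 236.8 CPM at the sampling points, and early summer medians between 6.76 and 15.4 CPM.

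From spring to early summer the transcript fell by 2.77 on the log2 scale (SE 0.25, n = 44 against 45, edgeR adjusted p = 7.1e-16), among 35.3% of transcripts called. From spring to late summer it fell by 2.08 (SE 0.25, n = 50 against 45, edgeR adjusted p = 6.5e-11), among 30.5% called. From early to late summer it rose by 0.72 ± 0.21 (n = 50 against 44, edgeR adjusted p = 0.0027), among 44.4% called. With counts summed per water sample the last difference was 0.63 with an adjusted p of 0.14, while both falls from spring kept their calls. The medians were lower in early summer than in spring at 9 of 9 points, lower in late summer than in spring at 9 of 9, and higher in late than in early summer at 9 of 9.

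Within single points 6 of the 27 season pairs passed the exact permutation test after adjustment (each p = 0.0079 with 5 against 5, the smallest possible, adjusted p = 0.036), 2 higher and 4 lower in the later season. The 6 are also the pairs without overlap. They were late summer against spring at the 37ST outfall and the SAP pipe, early summer against spring at the TBNS1 outfall and the SAP pipe, and late against early summer at both TBNS1 points. A contrast of the edgeR fit of all groups called 14 of the 27, 2 higher and 12 lower.

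The laboratory controls, which held no stormwater, carried the same season labels. The 6 spring controls ran from 8.86 to 297.8 CPM with a median of 80.1 CPM. Early summer controls were at 12.8, 22.2, 23.5, 28.5 and 74.5 CPM. Late summer controls of set J were at 8.09, 11.6, 15.5, 18.8 and 25.7 CPM and those of set L at 19.9, 26.8, 37.1, 42.3 and 73.8 CPM. The spring controls held 2 low pools and 4 at 70.6 CPM or more, and their SD on the log2(CPM + 1) scale was 2.04 beside 1.54 in spring stormwater. From spring to early summer the controls differed by -1.62 ± 0.79 (n = 5 against 6, edgeR adjusted p = 0.53), and from spring to late summer by -1.92 ± 0.56 (n = 10 against 6, edgeR adjusted p = 0.11, 1.25% of transcripts called). DESeq2 called the second of these differences (adjusted p = 0.023). In the first, edgeR called 0 of 25017 transcripts, with 2394 at an unadjusted p under 0.05, and DESeq2 called 223. The direction of both was that of the stormwater libraries, and the seasonal differences in stormwater and in the controls were not tested against each other. The study states that all stormwater exposures took place in January, so the season labels do not give the season of exposure. Season, collection and exposure run cannot be told apart.

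Late against early summer controls differed by -0.30 ± 0.46 (n = 10 against 5, edgeR adjusted p = 0.83, 0.359% called), and by 0.32 without replicate 3 of early summer, the library at 74.5 CPM. The 2 late summer control sets, which carry different code letters, differed by 1.30 ± 0.34 (set L against set J, n = 5 and 5, edgeR adjusted p = 1.0, exact permutation p = 0.016). There edgeR called 0 of 24947 transcripts, with 390 at an unadjusted p under 0.05, and DESeq2 called 0. Control water under one season label thus gave medians of 15.5 and 37.1 CPM.

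Set against the controls of their own season, the stormwater libraries differed by 0.24 ± 0.58 in spring (n = 45 against 6, edgeR adjusted p = 0.92, 0.104% of transcripts called). In late summer the difference was 0.13 ± 0.36 (n = 50 against 10, edgeR adjusted p = 0.95, 0.0192% called), and -0.14 as a difference of mean log2(CPM + 1). Without sets K and L it was 0.91 (edgeR adjusted p = 0.935). In early summer stormwater differed by -0.91 ± 0.38 (n = 44 against 5, edgeR adjusted p = 0.066, 27.4% called), and 30 of its 44 libraries were below all 5 controls. That difference was -1.12 and passed without control replicate 5 (adjusted p = 0.035), and it was -0.30 without control replicate 3 (adjusted p = 0.65). Of the 28 stormwater groups 0 passed the exact permutation test against their controls after adjustment, with 9 at an unadjusted p under 0.05 and the smallest adjusted p at 0.074, and the edgeR fit of all groups called 2, both lower. The 3 groups whose libraries did not overlap with the controls were all of early summer, from both TBNS1 points and the Cedar Lake pipe. Each had an exact p of 0.0079, the smallest that 5 against 5 libraries allow, which the adjustment raised to 0.074. The adjustment depends on how many groups reach such a p, and here only these 3 of the 28 did. They therefore did not pass although they were fully separated.

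The sand filters and the pipes showed no difference that passed. Outfall against inflow gave -0.36 ± 0.31 over all sites and seasons (n = 45 against 44, edgeR adjusted p = 0.95, 0.18% called), and -0.13 with site and season as a covariate. Within site and season 0 of 9 pairs passed the exact permutation test, with 0 at an unadjusted p under 0.05 and differences between -1.46 and 0.78 on the log2(CPM + 1) scale, and the edgeR fit also called 0. The pipes against the filter inflows gave 0.33 ± 0.36 (n = 50 against 44, edgeR adjusted p = 0.89, 1.51% called), and 0.08 with season as a covariate.

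Sampling points within one season passed the edgeR F test in early summer (9 groups, 44 libraries, adjusted p = 0.022, 10.1% of transcripts called) and in late summer (10 groups, 50 libraries, adjusted p = 0.027, 0.639% called). In spring they did not (9 groups, 45 libraries, adjusted p = 0.64, 1.11% called), although the means spanned most there. The group means of log2(CPM + 1) spanned 2.59 in spring from TBNS2 outfall to SAP pipe, 1.21 in early summer from TBNS1 outfall to Crystal Lake pipe, and 2.05 in late summer from 37ST inflow to TBNS1 outfall. Ordered by median, the 32 stormwater-experiment groups ran from the SAP pipe in spring at 236.8 CPM to the TBNS1 outfall in early summer at 6.76 CPM, and the first 9 were all of spring. In all 31 pairs of neighbours the libraries overlapped. Groups explained 56.3% of the variance over the 160 libraries, against a median of 33.4% over transcripts with at least 5 CPM, and the SD within groups was 1.08, larger than that of 82.8% of those transcripts.

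**Figure D3:**
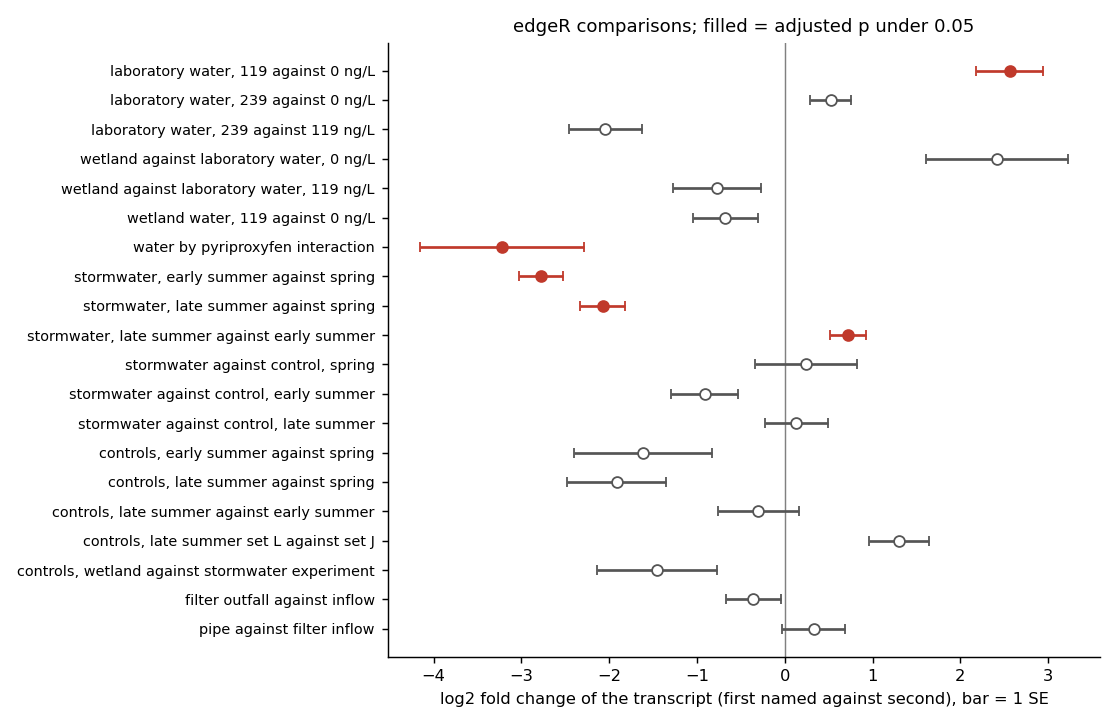
Log2 fold change of Dapma7bEVm005257t1 with its SE in the 20 edgeR comparisons, the first named group against the second, filled where the adjusted p was under 0.05. The filled points are the rise in Lab Water-119 (2.56), the interaction of water and pyriproxyfen (-3.22) and the 3 seasonal differences in stormwater (-2.77, -2.08 and 0.72).

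The unspiked laboratory libraries of the wetland experiment differed from the 21 controls of the stormwater experiment by -1.46 ± 0.69 (n = 5 against 21, edgeR adjusted p = 0.16, 14.5% called). Their range, 13.3 to 18.9 CPM, lay inside that of the stormwater controls, 8.09 to 297.8 CPM. The experiments are separate batches, and the study's methods speak of different genetic backgrounds while the labels give one supplier, so that batch and animals cannot be told apart.

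Several transcripts followed Dapma7bEVm005257t1 from pool to pool, also among pools of one group. Among 11856 transcripts with a mean of at least 5 CPM in both experiments, the 8 most alike had Spearman's rho between 0.81 and 0.93 over the 69 wetland-experiment libraries and between 0.83 and 0.91 over the 160 stormwater-experiment libraries. The closest was Dapma7bEVm011999t1, an uncharacterized protein, with rho 0.93 and 0.91, and with 0.92 and 0.88 after each group's mean had been subtracted. The second was Dapma7bEVm005773t1, named for an APPLE Factor XI-like domain, with rho 0.86 and 0.84. Next came Dapma7bEVm012948t1, named only as a conserved protein, with 0.87 and 0.84. The other 5 were Dapma7bEVm003338t1, Dapma7bEVm003990t1, Dapma7bEVm002959t1, Dapma7bEVm006634t1 and Dapma7bEVm005791t1, of which the last is an uncharacterized protein and the others have no name in the tables used. All 8 were also among the first 100 by Pearson's r and after the subtraction of group means. These rankings use the same libraries and are not independent of the first.

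Rank 12 by the same measure was Dapma7bEVm002215t1, named testis development protein nyd-sp29, with rho 0.83 and 0.79, and 0.91 and 0.74 after subtraction of group means. It is named because it stood in a list of germline names, after its value was seen. The 3 transcripts least alike, Dapma7bEVm019398t1, Dapma7bEVm027730t1 and Dapma7bEVm001637t1, had rho between -0.68 and -0.58 in the wetland experiment and between -0.60 and -0.59 in stormwater. Both rho values were at 0.5 or more for 250 transcripts and at -0.5 or less for 79. Libraries of a group share water and exposure, and whether the closest transcripts share sequence with the doublesex-related one was not tested. The estimated count of the doublesex-related transcript was not a whole number in 185 of the 230 libraries, as happens where reads are divided between transcripts.

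**Figure D4:**
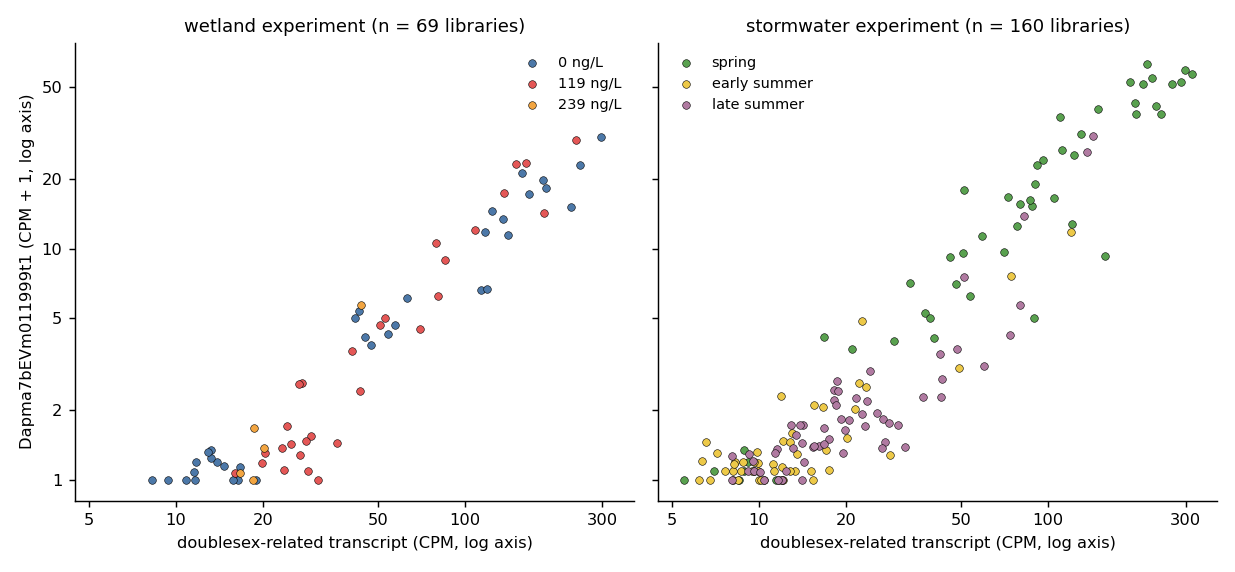
Level of Dapma7bEVm011999t1 (CPM + 1, log axis), the transcript most alike, against that of Dapma7bEVm005257t1 (CPM, log axis), one point per library, by pyriproxyfen concentration in the wetland experiment and by season in the stormwater experiment. The points rise together in both experiments (rho 0.93 over 69 and 0.91 over 160 libraries), and libraries of different concentrations or seasons lie along the same band.

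Other names of the pathway and its neighbours were taken from the study's tables, which were chosen on these libraries, so their counts are no independent evidence. For Lab Water-119 against Lab Water-0, where edgeR called 3.86% of all transcripts higher and 6.21% lower, the list of hormone signalling and synthesis had 2 of 8 members higher, 5 lower and 1 not called, with a median log2 fold change of -3.71 against 0.01 over all transcripts. Its 4 largest changes were those of ecdysone-induced protein 78C (-5.14 ± 1.29), hormone receptor hr3 (-4.98 ± 0.75), dHR96 (-4.87 ± 0.44) and nuclear receptor subfamily 6 group A member 1-A (-4.09 ± 0.37). These are nuclear receptors, ligand-regulated or orphan transcription factors, of which the first 2 belong to the ecdysone-induced cascade of moulting in insects. All 4 were lower in Lab Water-119, where the doublesex-related transcript was higher. The member not called was the retinoid x receptor (-0.55 ± 0.29, edgeR adjusted p = 0.29), the partner of the ecdysone receptor, which is named here after its value was seen. For Wetland-119 against Wetland-0, 0 of the 8 passed in either direction, where 7.55% of all transcripts were called higher and 7.81% lower. From spring to early summer in stormwater 0 of the 8 rose and 3 fell, where 17.2% of all transcripts rose and 18.1% fell.

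The germline and gamete list had 2 of 8 higher, 4 lower and 2 not called for Lab Water-119 against Lab Water-0. Over all transcripts 3.86% were higher and 6.21% lower. Tudor and KH domain-containing protein, whose relatives act in the piRNA pathway of the germline, was at -7.63 ± 0.89 on the log2 scale. A sperm flagellar membrane protein was at -3.23 ± 0.39, and the zygote-specific class v copy b gene protein at -2.15 ± 0.27. Dapma7bEVm002215t1, the testis development protein that followed the doublesex-related transcript across libraries, rose by 2.28 ± 0.52 (edgeR adjusted p = 0.018). For Wetland-119 against Wetland-0, 0 of the 8 rose and 3 fell, where 7.55% of all transcripts were higher and 7.81% lower. From spring to early summer 1 rose and 4 fell, where 17.2% of all transcripts rose and 18.1% fell. For Lab Water-119 against Lab Water-0 the list of other transcription factors had 2 of 12 higher, 4 lower and 6 not called, beside 3.86% higher and 6.21% lower over all transcripts. Its 4 largest called changes were those of Class A basic helix-loop-helix protein (-3.60 ± 0.75), PR domain zinc finger protein (-3.59 ± 0.65), an ETS-domain lacking protein (3.52 ± 0.59) and CREB/ATF bZIP transcription factor (3.19 ± 0.53). For Wetland-119 against Wetland-0 this list had 2 higher and 2 lower, and from spring to early summer 4 rose and 3 fell. The shares over all transcripts were those given for the germline list.

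Globins include the haemoglobins that carry oxygen in daphnid haemolymph. For Lab Water-119 against Lab Water-0 the list of globins had 1 of 11 higher and 1 lower, with a median log2 fold change of -0.66. Over all transcripts 3.86% were higher and 6.21% lower. For Wetland-119 against Wetland-0 the globin list had 9 higher and 1 lower with a median of 1.05, beside 7.55% of all transcripts higher and 7.81% lower. From spring to early summer 5 rose and 0 fell with a median of 0.57, where 17.2% of all transcripts rose and 18.1% fell. The cuticle and chitin list had 20 of 89 higher and 48 lower in Lab Water-119, with a median of -3.38. It had 1 higher and 1 lower in Wetland-119, and 17 rose and 15 fell from spring to early summer. As shares of the 89, the Wetland-119 counts were below those over all transcripts and the seasonal counts were near them. Only members with a mean of at least 5 CPM in both experiments were compared in level with the doublesex-related transcript, namely 6 of 8 of the hormone list, 7 of 8 germline, 4 of 12 transcription factor, 9 of 11 globin and 62 of 89 cuticle members. The median rho of these lists lay between 0.00 and 0.09 in the wetland experiment and between -0.27 and 0.01 in stormwater, beside medians of 0.08 and 0.10 over all 11856 transcripts. Single members stood far from these medians, up to 0.83 and 0.79 in the germline list, the testis development protein, and up to 0.52 in stormwater in the hormone list and in the cuticle list.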

How the data were processed

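Per the study's methods, the authors checked reads with FastQC, trimmed them with Trimmomatic and mapped them with kallisto to reference transcripts of D. magna. Their versions are not given in the sources used here. The deposited table holds estimated counts per transcript, not normalized, of which 31.4% were not whole numbers. Here they were rounded, and 2871 transcripts were removed because they did not vary within the wetland experiment, the stormwater experiment or both. Comparisons used the edgeR 4.0.16 quasi-likelihood test in R 4.3.3 (TMM scaling, Benjamini-Hochberg adjustment over all transcripts tested, call at an adjusted p under 0.05), with the groups compared in the fit. Single waters were compared by exact 2-sided permutation tests of mean log2(CPM + 1), adjusted within each family. DESeq2 1.42.0 was an alternative. Scripts were tested on simulated data. The 8 most alike transcripts had the highest lower rho of the 2 experiments, and the 3 least alike the lowest higher rho. Up to 4 members of each list were named, by absolute change in Lab Water-119. The transcript and the lists were chosen with earlier results of these data known. No replicate pair held identical values. 1 library with conflicting season labels was left out of all comparisons.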

Additional observations from a re-analysis of the deposited data

Results flagged for a closer look

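In 12 of the 45 groups of 4 to 10 libraries, 1 library lay further from the rest than Dixon's 95% limit allows on the CPM scale. In all 12 it was the highest of its group, and 6 libraries stood apart on the log2 scale. The limit flags about 1 in 20 groups by chance where values are normally distributed, which skewed CPM values need not be, so the count of 12 is not read against that rate. In the wetland experiment these were replicate 5 of Lab Water-239 (43.8 CPM) and replicate 4 of the spiked Woodland water (187.7 CPM). In spring it was replicate 1 of the TBNS1 outfall (245.97 CPM). In early summer they were replicate 3 of the 37ST inflow (20.2 CPM), replicate 1 of the TBNS2 inflow (17.6 CPM), replicate 2 of the TBNS2 outfall (22.8 CPM), replicate 5 of the Crystal Lake pipe (120.6 CPM) and replicate 3 of the SCSU control (74.5 CPM). In late summer they were replicate 5 of the TBNS1 inflow (82.9 CPM), replicate 4 of the TBNS1 outfall (143.5 CPM), replicate 5 of the TBNS2 inflow (136.7 CPM) and replicate 3 of SAP set K (80.3 CPM).

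The change from unspiked to spiked libraries (Wetland-119 and Lab Water-119) differed between wetland and laboratory water by -3.22 ± 0.93 on the log2 scale (edgeR interaction term, adjusted p = 0.019). The unspiked laboratory control held no vehicle, so water and vehicle cannot be told apart here.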

How the results depend on the processing

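Of 288 values under alternative settings, 258 were counted as unchanged, 17 newly passed the threshold, 3 no longer passed, 8 moved and 2 reversed. For a difference, unchanged means the same direction and side of the threshold. F tests have no direction, and families of single-water tests were compared by their number of calls. With 1 replicate number left out, those families could pass only if several pairs separated, and 0 calls that stayed 0 counted as unchanged. The rise in Lab Water-119 and the interaction passed under every alternative run, the interaction without a permutation version. DESeq2 newly called Lab Water-239 against Lab Water-119 (-2.02), unspiked wetland against laboratory water (2.43), late summer against spring controls (-1.93) and the spiked wetlands among themselves (range 2.03). Permutation tests, not adjusted over transcripts, passed for Lab Water-239 against Lab Water-0 (0.50, exact p = 0.040), Lab Water-239 against Lab Water-119 (-1.87), unspiked wetland against laboratory water (1.72), early summer stormwater against controls (-1.10) and control set L against J (1.23), and turned late summer stormwater against controls to -0.14. A fit of all libraries of an experiment called unspiked wetland against laboratory water (2.37), Wetland-119 against Wetland-0 (-0.96), early summer stormwater against controls (-1.08) and late summer against spring controls (-2.08). Summed counts called unspiked wetland against laboratory water (2.39), with the laboratory libraries left unsummed, and lost late against early summer (0.63, edgeR adjusted p = 0.14). filterByExpr called early summer stormwater against controls (-0.96). Contrasts of the edgeR fit of all groups called 1 of 6 wetlands against laboratory water, 14 of 27 season pairs and 2 of 28 groups against controls. The cause of these changes was not tested.

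Replicate numbers were not taken to pair libraries. Of same-numbered pairs 2 of 5 correlated above 0.1 between Lab Water-119 and Lab Water-0, 4 of 5 between Lab Water-239 and Lab Water-0, 1 of 5 between Lab Water-239 and Lab Water-119, 171 of 448 over the wetland experiment and 1039 of 2449 over the stormwater experiment. With the replicate number as a block, the rise in Lab Water-119 was 2.35 (edgeR adjusted p = 0.011) and the interaction -2.99 (adjusted p = 0.040). The block called early summer stormwater against controls (-1.01) and lost the sampling points in early summer (range 1.21, adjusted p = 0.10) and late summer (range 2.05, adjusted p = 0.069), and changed no other call.

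Leaving out 1 library at a time gave 2.29 to 2.74 for the rise in Lab Water-119. Early summer stormwater against controls ran from -1.12 to -0.30 and late against early summer controls from -0.51 to 0.32. With 1 replicate number left out of every group, 0 of 27 season pairs passed, in a design of mostly 4 against 4 libraries. There the smallest possible exact permutation p is 0.029. Without replicate 2 the smallest adjusted p was 0.070, although 11 pairs had no overlap. These runs therefore cannot show whether a call rested on 1 replicate. Every assigned library held at least 62 counts of the transcript, and whether depth or the number of pools limited the calls was not tested.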

Other observations

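One library labelled as 37ST inflow of late summer carries the code letter of the early summer libraries and was put in no group. Its level of the doublesex-related transcript was 13.3 CPM, from 165 counts.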
